A study of Mus musculus with 30 samples.

Results

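Malat1, Neat1, Snhg11, Rian and Meg3 are long noncoding RNAs, and their levels were followed in every library of a mouse study of fear memory in amygdala and trunk blood. They are 5 of the 23303 entries of the deposited expression table and were taken by their exact entry names. Meg3 has no entry of its own: the table joins it with the microRNA genes Mir1906-1 and Mir770, which lie inside it, and the joined entry is called Meg3 here. They were chosen by name with their FPKM values in the amygdala libraries of this table in view, so the amygdala levels are described without a test. The blood levels were tested, though earlier results of these data were known when the choice was made.

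All mice were male C57BL/6J animals of 2 to 3 months. Home cage mice (HC) were handled only, FC mice were killed 2 h after auditory fear conditioning, in which a tone was paired with a foot shock, and Immo+FC mice had been immobilized for 2 h, a week before the same conditioning. Each library came from a pool of 2 mice of 1 group, with 6 HC, 6 FC and 4 Immo+FC libraries of amygdala and 4 HC, 5 FC and 5 Immo+FC libraries of blood. By the pool numbers in the labels these are 17 pools, of which 13 gave a library of both tissues, so the tissues share animals. No group had immobilization alone, and the punches, centred on the basolateral nucleus, may hold neighbouring subregions. Levels are in FPKM, fragments scaled to transcript length and to the reads mapped, so that levels of different genes can be set side by side within a tissue. The authors processed the tissues separately, and levels of the 2 tissues are given beside each other without a test.

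Malat1 and Neat1 are transcribed from neighbouring genes and stay in the nucleus. Malat1 gathers in nuclear speckles, where splicing factors are stored, and Neat1 is the scaffold of paraspeckles, bodies that hold the proteins Sfpq, Nono and Pspc1. Meg3 and Rian belong to the imprinted Dlk1-Dio3 domain and are transcribed from the maternal chromosome, while the protein coding genes Dlk1, Rtl1 and Dio3 of the domain are mainly transcribed from the paternal one. Rian and Snhg11 carry small nucleolar RNAs in their introns, and Snhg11, Rian and Meg3 are well known for their high levels in neurons. Malat1 and the long form of Neat1 end in a folded RNA structure in place of a poly-A tail, and the libraries were made by poly-A selection, so the values measure what this selection retained.

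On GRCm38, the build also called mm10, Malat1 lies on the minus strand at chr19:5795690-5802672, with a longest transcript of 6983 bases in 1 exon. Neat1 lies upstream of it on the same strand at chr19:5824708-5845478, with a longest transcript of 20771 bases in 1 exon, and 22035 bases separate the pair. Meg3 lies on the plus strand at chr12:109541001-109571726 and Rian on the same strand at chr12:109603940-109661716, 32.2 kb further on, with Rtl1 between them on the minus strand. Snhg11 lies on the plus strand at chr2:158375638-158386145 and is a protein coding gene in GENCODE, but a long noncoding RNA in RefSeq. Both microRNA genes of the joined entry lie inside Meg3 on the same strand. Mir1906-1, at chr12:109544541-109544620, is in an exon of all 5 of the 11 Meg3 transcripts that span it, and Mir770, at chr12:109563692-109563785, is in an exon of 1 and an intron of 3 of the 4 that span it.

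**Figure D1:**
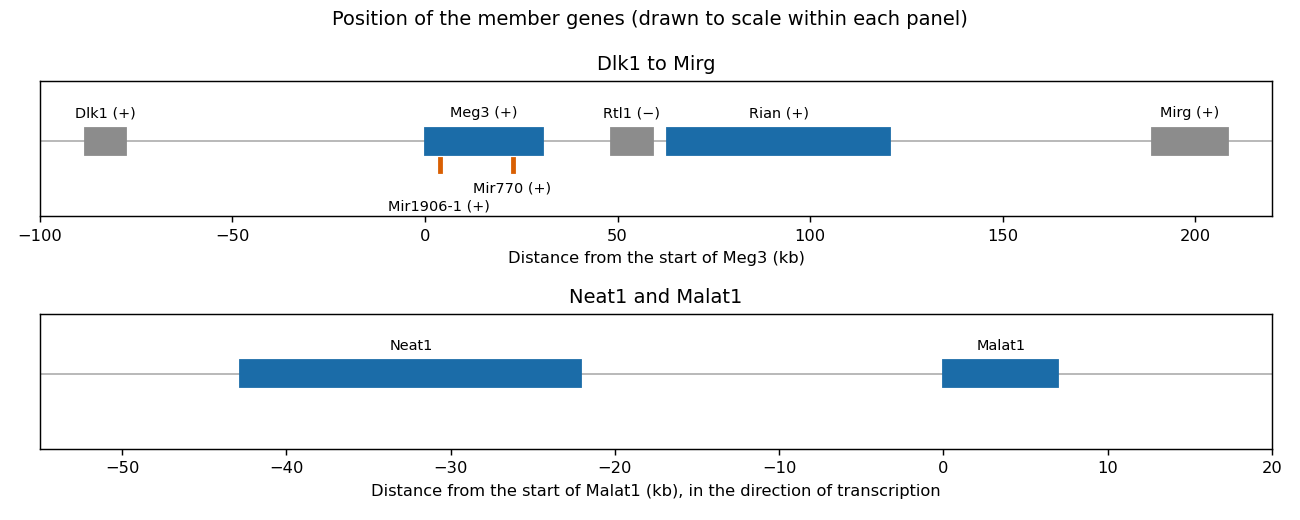
Positions of the genes, drawn to scale in kb along the chromosome from the start of Meg3 (upper panel) and from the start of Malat1 in the direction of transcription (lower panel); blue boxes are genes followed here, grey boxes are neighbours, orange bars are the microRNA genes and the signs in the upper panel give the strand. The microRNA genes lie inside Meg3, and Meg3 and Rian are 32.2 kb apart, with Rtl1 between them on the other strand.

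The mature microRNAs of the joined entry are shown because reads of these genes cannot be told apart from those of Meg3 in the table. The sequences are those of RefSeq on GRCm38.p6, and capitals mark the seed, bases 2 to 8, which pairs with target RNAs.
mmu-miR-1906: uGCAGCAGccugaggcagggcu
mmu-miR-770-5p: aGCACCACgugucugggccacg
mmu-miR-770-3p: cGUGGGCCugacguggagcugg
The 3 seeds differ from each other. Among 1738 mature mouse entries the seed of miR-1906 is found in 2, and those of miR-770-5p and miR-770-3p are each found in 1. The libraries measure long poly-A RNA and not mature microRNAs. A second entry named Mir1906-1 is listed at 0 in every library, and of 48 entries for microRNA genes between the start of Meg3 and the end of Mirg, the last noncoding gene of the cluster, 46 are at 0 in every library. The exceptions, named after their values were seen, are Mir1193, above 0 in 1 HC amygdala library, and Mir1188, which lies inside Rian. Mir1188 is listed at 31.2 to 122 FPKM in HC, 25.5 to 31.3 FPKM in FC and 0 to 145 FPKM in Immo+FC amygdala and at 0 in all blood libraries.

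Promoters are shown as background. The cAMP response elements, bound by the transcription factor CREB, are a known route of activity-dependent transcription in neurons. A link of these promoters to the amygdala values of Malat1 and Meg3 was not tested. The RefSeq promoters on GRCm38.p6, 250 bases before to 50 bases after the start, were found for 4 of the 5 genes, without Neat1, and Meg3 has a pair of them. Capitals mark the full cAMP response element TGACGTCA and its core TGACG on either strand, so that each full element also counts as a core.
Malat1, chr19:5802623-5802922, minus strand: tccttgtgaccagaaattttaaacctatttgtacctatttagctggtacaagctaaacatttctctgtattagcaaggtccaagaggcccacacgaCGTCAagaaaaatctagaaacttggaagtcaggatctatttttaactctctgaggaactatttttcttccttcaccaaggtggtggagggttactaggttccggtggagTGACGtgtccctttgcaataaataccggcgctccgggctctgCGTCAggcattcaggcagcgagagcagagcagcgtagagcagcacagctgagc
Meg3, chr12:109540746-109541045, plus strand: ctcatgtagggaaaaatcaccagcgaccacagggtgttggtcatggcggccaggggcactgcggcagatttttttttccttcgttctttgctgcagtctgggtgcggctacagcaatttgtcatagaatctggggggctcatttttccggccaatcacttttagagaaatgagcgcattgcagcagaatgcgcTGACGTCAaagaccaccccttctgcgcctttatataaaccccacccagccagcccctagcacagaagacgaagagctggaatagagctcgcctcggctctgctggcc
The first Meg3 promoter holds the full element 57 bases before the start, a match found in 1.79% of 32851 promoters of this length. It also holds CCAAT, found in 37.4% of promoters, and TATAAA, found in 13.6%. The Malat1 promoter holds the core 3 times and no full element, and 20.8% of promoters hold a core. CACGTG, found in 7.15% of promoters, and GGGCGG, found in 35.7%, had no match in these promoters, and the promoters of Snhg11 and Rian and the second promoter of Meg3 held none of the motifs searched. These matches describe letters in a window and are not evidence of binding.

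In the amygdala, Meg3 was the highest of the 5 RNAs where it has a value, followed by Snhg11, Rian, Malat1 and Neat1. Meg3 exceeded Snhg11 in 10 of 10 libraries with a Meg3 value above 0, by 1.14 to 1.52 times, although the ranges of 420 to 650 FPKM for Meg3 and 368 to 467 FPKM for Snhg11 overlap. Snhg11 exceeded Rian in 16 of 16 libraries, with a ratio of 2.94 to 3.48. Rian, at 112 to 147 FPKM, exceeded Malat1, at 38.5 to 121 FPKM, in all 16 libraries, with overlapping ranges. Neat1, at 18.2 to 29.6 FPKM, was below Malat1, Rian and Snhg11 in every library and below Meg3 wherever Meg3 is above 0. The coefficient of variation over the 16 libraries was 44.1% for Malat1, 13.5% for Neat1, 6.79% for Snhg11 and 6.80% for Rian. Snap25, a synaptic protein that marks neurons, was at 775 to 998 FPKM in the same libraries.

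**Figure D2:**
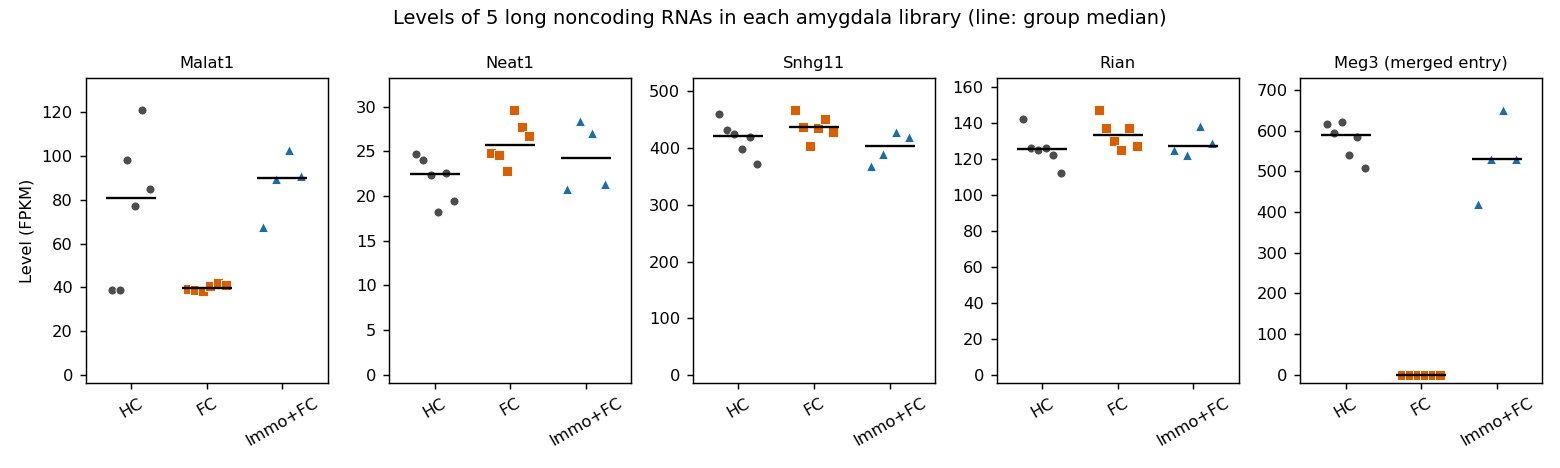
Level in FPKM (vertical axis, linear, starting just below 0) of each RNA in each amygdala library of 6 HC, 6 FC and 4 Immo+FC pools; each point is a library and the line is the group median. Malat1 lies between 38.5 and 42.2 FPKM in FC and between 67.8 and 103 FPKM in Immo+FC, with HC libraries at both levels, Meg3 is listed at 0 in the 6 FC libraries, and the groups overlap for Neat1, Snhg11 and Rian.

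Malat1 was at 38.7, 38.7, 98.3, 77.1, 121 and 85.0 FPKM in HC replicates 1 to 6. In FC it was at 39.1, 38.9, 38.5, 40.6, 42.2 and 41.2 FPKM, and in Immo+FC at 67.8, 89.4, 103 and 90.9 FPKM. FC libraries were tightly grouped, with a mean of 40.1 ± 1.46 FPKM (SD, n = 6), and all Immo+FC libraries, with a mean of 87.6 ± 14.5 FPKM (SD, n = 4), lay above them. The HC libraries fell on both sides, with replicates 1 and 2 inside the FC range and replicates 3 to 6 above it, and had a mean of 76.4 ± 32.7 FPKM (SD, n = 6). The fitted difference on the log2(FPKM + 0.1) scale was -0.80 (SE 0.23) for FC vs. HC, 1.11 (SE 0.26) for Immo+FC vs. FC and 0.31 (SE 0.26) for Immo+FC vs. HC. Each group is part of 2 of these comparisons. Without HC replicates 1 and 2 the FC vs. HC difference was -1.23 and that of Immo+FC vs. HC was -0.12, of the opposite sign.

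The split of Malat1 ran along a split among the libraries in the mean level of genes with long transcripts. A long transcript score, the mean of the centred log2 levels of 316 tested genes with a transcript over 10 kb and without the 5 RNAs themselves, was below 0 in all 8 libraries with Malat1 at or below 42.2 FPKM, 6 of them FC and 2 HC, where it ranged from -0.32 to -0.09. Of the 8 libraries with Malat1 above that level, 4 of them HC and 4 Immo+FC, 7 had scores of 0.21 to 0.26. The exception was Immo+FC replicate 1, with a score of -0.22 and Malat1 at 67.8 FPKM. With the score as a covariate the fitted Malat1 difference moved to -0.19 for FC vs. HC and to 0.49 for Immo+FC vs. FC. All FC scores were below 0, and the score holds genes that closely followed Malat1. The fit therefore cannot separate the group from the score, and no conclusion is drawn from it. Shorter transcripts were not scored, and the part of transcript length in the Malat1 difference was not tested.

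**Figure D3:**
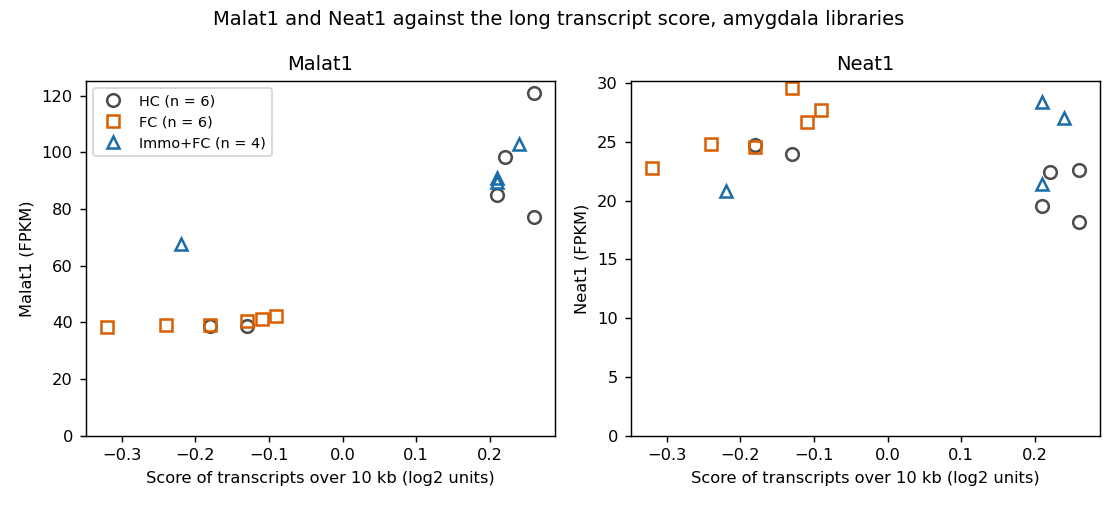
Malat1 (left) and Neat1 (right) in FPKM (vertical axes, linear, from 0) against the long transcript score in log2 units (horizontal axes) for 16 amygdala libraries, with HC as circles, FC as squares and Immo+FC as triangles. Malat1 is at 38.5 to 42.2 FPKM in 8 libraries with scores of -0.32 to -0.09 and at 77.1 to 121 FPKM at scores of 0.21 to 0.26, with Immo+FC replicate 1 apart at 67.8 FPKM and -0.22, while Neat1 has no such split.

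The genes whose amygdala pattern was most like that of Malat1 share its split by the way they were ranked. By Pearson's r of log2(FPKM + 0.1) over the 16 libraries, given as a description, they were Lnpep (0.977), BC005561 (0.976), Grin2b (0.975), Ago3 (0.974) and Erbb4 (0.971). Lnpep, a membrane aminopeptidase, was at 0.614, 0.678, 4.69, 5.56, 6.29 and 5.04 FPKM in HC, at 2.3, 4.74, 5.53 and 5.1 FPKM in Immo+FC, and between 0.379 and 0.681 FPKM in the FC libraries. For Grin2b, a subunit of the NMDA receptor, the levels were 0.592 and 0.715 FPKM in HC replicates 1 and 2 and at 6.88 to 8.76 FPKM in the other HC libraries. Their longest transcripts measure 12.1 kb for Lnpep, 24.1 kb for Grin2b, 15.6 kb for Ago3 and 12.0 kb for Erbb4, a receptor for neuregulins, but 5.41 kb for BC005561 and 6.98 kb for Malat1. Lnpep, Grin2b, Ago3 and Erbb4 are themselves part of the long transcript score, which holds 316 of the 13508 genes tested. The likeness was about as high after group means were taken out, with r of 0.941 to 0.966 for these 5 genes, so it is also carried by differences among libraries of 1 group.

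Neat1 did not share the pattern of its neighbour. Its longest annotated transcript is the longer of the pair. Its long form lacks a poly-A tail, however, and which form was measured cannot be told. Its length can therefore not be set against the long transcript score. It was at 18.2 FPKM at the lowest, 22.5 at the median and 24.7 at the highest in HC, at 22.8, 25.7 and 29.6 FPKM in FC, and 20.8, 28.4, 27.0 and 21.4 FPKM in the 4 Immo+FC libraries. The 3 groups overlap. The fitted difference was 0.25 (SE 0.09) for FC vs. HC, -0.10 (SE 0.10) for Immo+FC vs. FC and 0.15 (SE 0.10) for Immo+FC vs. HC, and r with Malat1 over the 16 libraries was -0.377. The ratio of Neat1 to Malat1 was 0.593 to 0.728 in FC, 0.235 to 0.317 in Immo+FC and 0.187 to 0.640 in HC, so that it kept FC and Immo+FC apart. Most like Neat1 were Akap8, which codes for a nuclear anchoring protein (0.877), Ints4, a subunit of the Integrator complex (0.832), Lamb2, a laminin of basement membranes (0.826), and Tbcel (0.825), and these values of r are lower than those of the genes most like Malat1.

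Snhg11 and Rian had steady amygdala levels. Snhg11 was at 372, 422 and 460 FPKM (lowest, median and highest) in HC, at 403, 436 and 467 FPKM in FC and 368, 390, 429 and 419 FPKM in Immo+FC. Rian was at 112, 125 and 142 FPKM in HC, at 125, 133 and 147 FPKM in FC and 125, 122, 138 and 129 FPKM in Immo+FC. Groups overlap for both RNAs in all 3 comparisons. For Snhg11 the differences were 0.07 (SE 0.05) for FC vs. HC, -0.12 (SE 0.06) for Immo+FC vs. FC and -0.06 (SE 0.06) for Immo+FC vs. HC. For Rian they were 0.09 (SE 0.05), -0.06 (SE 0.06) and 0.04 (SE 0.06) in the same order.

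These steady levels varied together from library to library, with r of 0.773 between Snhg11 and Rian over the 16 libraries and 0.801 after group means were taken out, though the genes lie on different chromosomes. Most like Snhg11 were Tmie (0.913), Zdhhc20 (0.911), Ndc1 (0.898) and Tacr3, the neurokinin B receptor (0.894). Most like Rian were Rit2, a small GTPase of neurons (0.924), Ip6k1 (0.888), Tmem200a (0.887), the splicing factor Srsf1 (0.877) and Elovl4, an enzyme of very long fatty acids (0.875). Rit2 was at 29.8 to 39.7 FPKM over the libraries, a small range. The values compared share the libraries and their scale.

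Meg3 is listed at 0 in all 6 FC amygdala libraries. In HC it was at 615, 595, 622, 541, 584 and 508 FPKM, and in Immo+FC at 420, 529, 650 and 530 FPKM, so no listed value lies between 0 and 420 FPKM. It is the only entry of the 23303 that is at 0 in every library of 1 amygdala group and above 0 in all the others. The genes Actb, Gapdh and Eef1a1, which every cell uses, were listed at 0 in 0 of 30 libraries. Rian, its neighbour on the same strand, was at 125 FPKM or more in the same FC libraries, and Meg3 itself has values above 0 in all 5 FC blood libraries. A 0 in a table of FPKM estimates can be a failed estimate, which was not tested and cannot be told from these values, so no fold or test is given for FC. Between Immo+FC and HC, where all values are above 0, the groups overlap and the fitted difference was -0.13 (SE 0.09). It was 0.013 without HC replicates 1 and 2 and Immo+FC replicate 1, the libraries with low long transcript scores.

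Of the 5 RNAs, the amygdala groups did not overlap for 1 in FC vs. HC, the Meg3 entry listed at 0, beside 1.39% of the 13508 genes tested. They did not overlap for 2 in Immo+FC vs. FC, Malat1 and Meg3, beside 2.28% of genes, and for 0 in Immo+FC vs. HC, beside 2.57% of genes. The choice of the RNAs used these contrasts, and the counts are a description.

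Around them, genes of the same families were tested across the amygdala with limma at an adjusted p of 0.05. The lists of these genes were chosen with earlier results of these data known. Their counts and p-values, here and below, are therefore a description. Of 95 tested genes in lists of the Dlk1-Dio3 domain, other imprinted genes, small nucleolar RNA hosts, other long noncoding RNAs, paraspeckle proteins and nuclear speckle proteins, 0 passed in each comparison. Over all genes 2 passed in FC vs. HC (0.0148%), 3 in Immo+FC vs. FC (0.0222%) and 27 in Immo+FC vs. HC (0.2%). All genes here include the Meg3 entry with its listed values of 0 in FC, so the counts for comparisons with FC may rest in part on it. At an unadjusted p of 0.05, 8 of the 95 genes were higher and 8 lower in FC than in HC, against 13.1% of all genes tested in either direction. In Immo+FC 6 were higher and 9 lower than in FC, against 10.4% of all genes, and 7 were higher and 9 lower than in HC, against 13.1%. The median log2 difference of the 95 genes was 0.03 in FC vs. HC, beside 0.01 for all genes tested.

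In the Dlk1-Dio3 domain the protein coding genes were far below Rian, and below Meg3 where it is above 0. Dlk1, a membrane protein of the Notch ligand family, was at 2.06 to 7.53 FPKM over the amygdala libraries of HC and 2.28 to 7.53 FPKM in FC. Rtl1, a gene derived from a retrotransposon, was at 0.956 to 1.28 FPKM in HC and 0.956 to 1.35 FPKM in FC. Dio3, which inactivates thyroid hormone, was at 1.66 to 6.39 FPKM in HC and 3.58 to 5.94 FPKM in FC. The FC vs. HC differences in log2 levels were 0.15 (SE 0.34) for Dlk1, 0.13 (SE 0.12) for Rtl1 and 0.23 (SE 0.26) for Dio3, with adjusted p-values of limma of 0.893, 0.684 and 0.761. Mirg has no value here.

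Among the proteins of the nuclear bodies, Son, a large splicing cofactor of nuclear speckles, was at 24.5 to 37.9 FPKM in HC, 22.4 to 26.8 FPKM in FC and 26.7 to 38.8 FPKM in Immo+FC, with a log2 difference of -0.40 (SE 0.12) in FC vs. HC and an adjusted p of 0.131 by limma. Srrm2, another speckle protein, had a difference of -0.01 (SE 0.09). Of the paraspeckle proteins, Sfpq ranged from 34.7 to 41.8 FPKM in FC and from 44.6 to 47.1 FPKM in Immo+FC, groups that did not overlap, but the log2 difference of 0.27 (SE 0.08) had an adjusted p of 0.248 by limma. Nono and Pspc1 differed by -0.04 (SE 0.03) and -0.14 (SE 0.05) in the same comparison. Ube3a, an imprinted ubiquitin ligase of neurons, ranged from 4.84 to 6.26 FPKM in FC and from 6.5 to 13.4 FPKM in HC. Its groups did not overlap, with a log2 difference of -0.75 (SE 0.17) and an adjusted p of 0.106 by limma. Peg3, an imprinted zinc finger gene, differed by -0.42 (SE 0.17), and Ndn, an imprinted gene of neurons, by 0.02 (SE 0.14). Among other noncoding RNAs, Miat, at 59.2 to 92.3 FPKM, and Tug1, at 14.7 to 19.6 FPKM, differed by 0.02 (SE 0.08) and -0.02 (SE 0.06) in FC vs. HC. The hosts of small nucleolar RNAs Gas5 and Snhg1 differed by 0.02 (SE 0.06) and -0.01 (SE 0.11).

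In blood the order was another one. Neat1 was the highest, at 67.1 to 101 FPKM, and exceeded Malat1, at 23.1 to 39.5 FPKM, in 14 of 14 libraries, by 2.12 to 3.56 times. The RNAs of neurons followed at low levels, with Meg3 at 0.0509 to 11.8 FPKM, Snhg11 at 0.177 to 6.06 FPKM and Rian at 0 to 2.71 FPKM. Meg3 exceeded Snhg11 in 12 of 14 libraries and Snhg11 exceeded Rian in all 12 libraries where Rian is above 0, while the ranges of all 3 overlap. The labelled tissues fit their markers: the leukocyte gene Ptprc was at 113 to 165 FPKM in blood and 1.07 to 4.27 FPKM in amygdala, and Cd79a of B cells was at 348 to 936 FPKM in blood and at most 0.19 FPKM in amygdala.

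**Figure D4:**
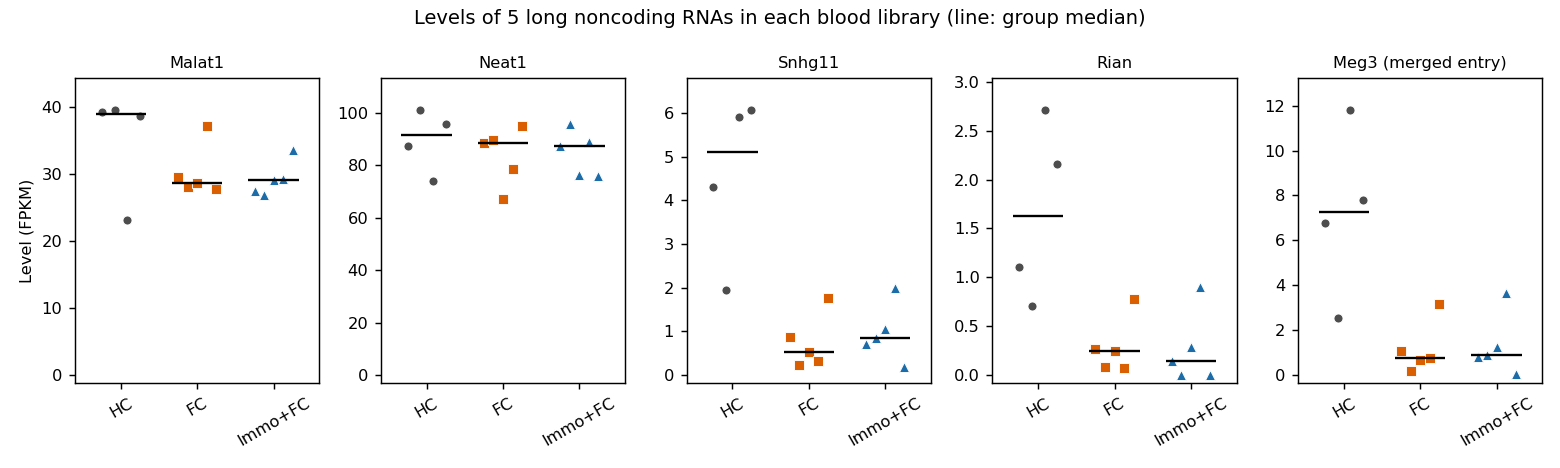
Level in FPKM (vertical axis, linear, starting just below 0) of each RNA in each blood library of 4 HC, 5 FC and 5 Immo+FC pools; each point is a library and the line is the group median. Malat1 and Neat1 overlap between all groups, while for Snhg11, Rian and Meg3 the HC libraries are mostly above the others, with no overlap between HC and FC for Snhg11.

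Malat1 was at 39.2, 39.5, 23.1 and 38.6 FPKM in HC blood, at 29.5, 28.0, 28.6, 37.1 and 27.8 FPKM in FC and 27.4, 26.9, 29.1, 29.3 and 33.5 FPKM in Immo+FC. HC replicate 3 was the lowest of all 14 libraries and the other 3 HC libraries were the highest of all. By limma the log2 difference was -0.19 (SE 0.15, 95% interval -0.52 to 0.13, adjusted p = 0.71) for FC vs. HC, -0.04 (SE 0.14, -0.35 to 0.26, adjusted p = 0.964) for Immo+FC vs. FC and -0.23 (SE 0.15, -0.56 to 0.09, adjusted p = 0.511) for Immo+FC vs. HC. Malat1 was not compared between the tissues by a test. Neat1 was at 87.2, 101, 73.9 and 95.9 FPKM in HC, at 88.6, 89.8, 67.1, 78.6 and 95.1 FPKM in FC and 87.5, 95.8, 76.1, 88.9 and 76.0 FPKM in Immo+FC. Its log2 differences were -0.09 (SE 0.13, adjusted p = 0.842), 0.02 (SE 0.12, adjusted p = 0.982) and -0.07 (SE 0.13, adjusted p = 0.842) by limma in the same order.

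HC blood replicate 3 also stood apart in its red cell RNA. Its score of erythroid marker genes was 2.32 against -0.94 to 0.53 in the other 13 libraries, and its FPKM values summed to 1674854 against 664738 to 1002978 in the others. Without it the Malat1 difference was -0.38 for FC vs. HC and -0.42 for Immo+FC vs. HC, the latter with an adjusted p of 0.0551 by limma. The genes most like Malat1 in blood were Mum1 (r = 0.968 over 14 libraries), Nadsyn1 (0.932), Dvl1, a protein of Wnt signalling (0.918), AW554918 (0.895) and Lrrc45 (0.875), and none of them was among those most like it in amygdala. Mum1 was at 12.9, 13.6, 7.8 and 13.7 FPKM in HC and so had the same low library. Most like Neat1 were Commd4 (0.895), Psen2, the presenilin of gamma-secretase (0.871), Ogfod3 (0.858), Kctd13 (0.817) and Tmem55b (0.795).

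Snhg11, Rian and Meg3 had their highest blood levels in HC. Snhg11 was at 4.3, 1.94, 5.91 and 6.06 FPKM in HC, at 0.862, 0.216, 0.519, 0.311 and 1.76 FPKM in FC, and 0.713, 0.855, 1.06, 1.98 and 0.177 FPKM in Immo+FC. All HC libraries lay above all FC libraries, while 1 Immo+FC library, at 1.98 FPKM, reached above the lowest HC library, at 1.94 FPKM. The log2 difference of FC vs. HC was -2.65 (SE 0.58, 95% interval -3.90 to -1.41), 6.29 times higher in HC, with a p of 0.000421 and an adjusted p of 0.121 by limma. For Immo+FC vs. HC it was -2.28 (SE 0.58), with an adjusted p of 0.0885 by limma, and for Immo+FC vs. FC 0.37 (SE 0.55, -0.81 to 1.55, adjusted p = 0.879). No comparison of Snhg11 passed after adjustment over all genes.

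Rian was at 1.1, 0.709, 2.71 and 2.16 FPKM in HC, at 0.266, 0.0804, 0.244, 0.0745 and 0.782 FPKM in FC, and 0.142, 0, 0.283, 0.902 and 0 FPKM in Immo+FC. In FC 1 library and in Immo+FC 1 library exceeded the lowest HC library. With a mean of 1.67 FPKM in HC against 0.289 FPKM in FC and 0.265 FPKM in Immo+FC, Rian reached the mean of 0.5 FPKM needed for the test only through HC, so its differences are given without a p. They were -2.29 for FC vs. HC, -2.67 for Immo+FC vs. HC and -0.38 for Immo+FC vs. FC on the log2(FPKM + 0.1) scale, which understates changes of low genes. Meg3 was at 6.75, 2.54, 11.8 and 7.8 FPKM in HC, at 1.05, 0.158, 0.671, 0.757 and 3.16 FPKM in FC, and 0.779, 0.91, 1.23, 3.65 and 0.0509 FPKM in Immo+FC. The highest FC and the highest Immo+FC library again exceeded the lowest HC library, replicate 2. The log2 difference was -2.81 (SE 0.81, adjusted p = 0.182) for FC vs. HC and -2.80 (SE 0.81, adjusted p = 0.116) for Immo+FC vs. HC by limma. Between Immo+FC and FC, Meg3 differed by 0.01 (SE 0.76, -1.62 to 1.65, adjusted p = 0.999) by limma.

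In counts, 0 of the RNAs passed an adjusted p of 0.05 by limma in any blood comparison. Over all 11656 genes tested 4 passed in FC vs. HC (0.0343%), 0 in Immo+FC vs. FC (0%), where 1112 had an unadjusted p under 0.05, and 8 in Immo+FC vs. HC (0.0686%). At an unadjusted p under 0.05, Snhg11 and Meg3 were lower in FC than in HC, with 5.87% of all genes lower and 10.2% called in either direction, and lower in Immo+FC than in HC, with 8.12% of all genes lower and 15.3% called in either direction. Rian is left out of this count, and since Snhg11 and Meg3 varied together over the libraries (r = 0.972) they are not separate observations. None had an unadjusted p under 0.05 in Immo+FC vs. FC, where 9.54% of all genes did. The groups did not overlap for 1 of the 5 in FC vs. HC, Snhg11, beside 3.88% of genes, for 0 in Immo+FC vs. FC, beside 1.58%, and for 0 in Immo+FC vs. HC, beside 4.61%. The comparisons with HC share the 4 HC libraries.

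Genes of neurons were also highest in HC blood, though the order of the libraries was not the same for each gene. All 14 neuron marker genes had a higher median in HC than in FC and than in Immo+FC blood, and their summed level was 25 to 75.4 FPKM in HC, 12.1 to 28.8 FPKM in FC and 11.1 to 27.7 FPKM in Immo+FC. None of them was at 0 in an HC library. Of the 14, 4 were at 0 in at least 1 FC library and 5 in at least 1 Immo+FC library. Rbfox3, a nuclear protein of mature neurons, was among them in both groups. Gad1 varied little, with medians of 9.42 FPKM for FC, 8.61 for Immo+FC and 10.1 for HC, and its groups overlapped. The median sums were 14.7, 16.7 and 55.3 FPKM in that order, so Gad1 made up much of the lower sums. Snap25 was at 11.7, 3.6, 14.5 and 16.5 FPKM in HC, at 1.89, 0.142, 1.17, 0.526 and 4.21 FPKM in FC and 2.06, 1.92, 2.57, 4.37 and 0.0747 FPKM in Immo+FC. The neuron marker score, the mean of the centred log2 levels of the 10 tested markers, was 1.51, 0.38, 1.74 and 2.1 in HC, -1.55 to 0.54 in FC and -2.12 to 0.57 in Immo+FC. The summed level of 8 astrocyte markers was 6.89 to 18.4 FPKM in HC, 3.65 to 9.16 FPKM in FC and 5.21 to 7.66 FPKM in Immo+FC. The score of the 5 tested was 0.08 to 1.14 in HC, -1.14 to 0.34 in FC and -0.69 to 0.24 in Immo+FC. Of these, Slc1a2 and Slc1a3 had a median above 0.5 FPKM in the HC libraries alone. Their place in the score rested on HC, so the score is not a separate sign of higher levels there. Of the 8, 7 had a lower median in FC than in HC and 1, Aldh1l1, a higher one. In Immo+FC 6 were lower and 2, Aldh1l1 and Gfap, higher, with Gfap at medians of 1.37 FPKM in HC and 1.63 in Immo+FC. With the neuron score as a covariate, the log2 difference for FC vs. HC was -0.40 for Snhg11, -0.02 for Rian and 0.29 for Meg3. For Immo+FC vs. HC it was -0.02, -0.39 and 0.32 in the same order. Snhg11 and Meg3 closely followed markers of this score, with r of 0.976 and 0.972 for Snap25 over the blood libraries. Map2 and Nefl, also in the score, had a median above 0.5 FPKM in the HC libraries alone. This fit therefore cannot tell a group difference from the score, and no conclusion is drawn from it. Fewer cells of a type and less RNA per cell cannot be told apart in such bulk samples, and the source of RNA of neurons in trunk blood was not tested.

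**Figure D5:**
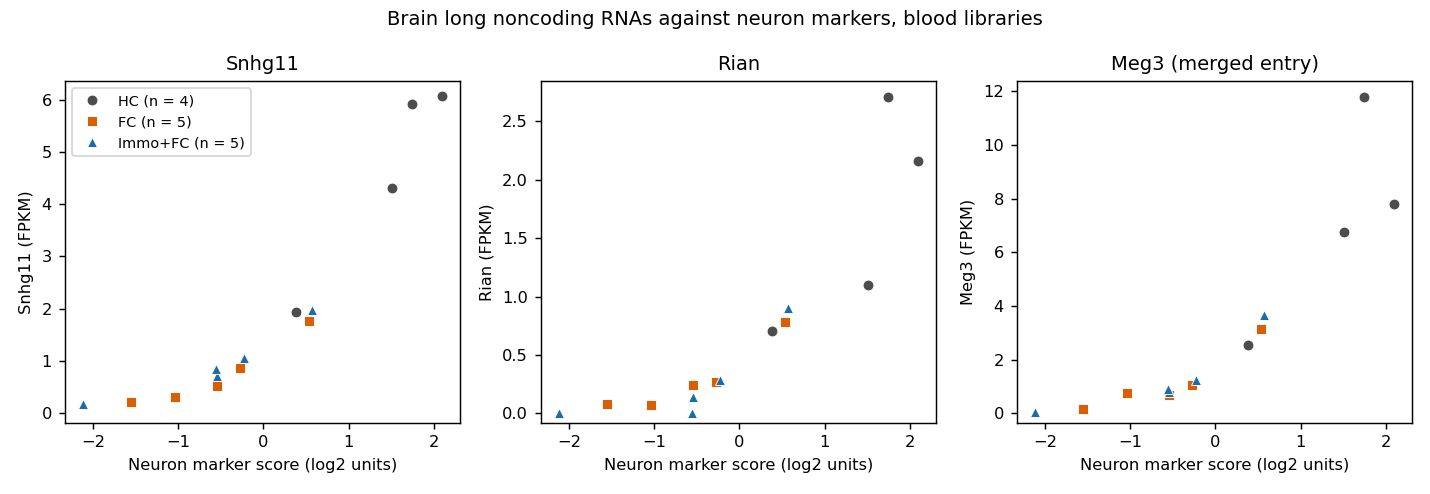
Snhg11, Rian and Meg3 in FPKM (vertical axes, linear) against the neuron marker score in log2 units (horizontal axes) for 14 blood libraries, with HC as circles, FC as squares and Immo+FC as triangles. The levels are highest in the 3 HC libraries with scores of 1.51 to 2.1, and HC replicate 2, at a score of 0.38, lies near the highest FC and Immo+FC libraries, at 0.54 and 0.57.

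The genes most like Snhg11 over the 14 blood libraries were Syt1, the calcium sensor of synaptic vesicles (r = 0.993), Mapt, the tau protein of axons (0.989), the neuronal kinesin Kif5a (0.988), Camk2a, the kinase of excitatory synapses (0.986), and the kinesin Kif1a (0.986). Most like Meg3 were Camk2a (0.988), Rtn1 (0.984), Slc1a2, the glutamate transporter of astrocytes (0.982), Ppp2r2c (0.982) and Gpm6a, a membrane protein of neurons (0.977). After group means were taken out, r was 0.967 to 0.989 for these genes with Snhg11 and 0.953 to 0.979 for those with Meg3. Mapt, Kif1a, Slc1a2 and Ppp2r2c reached the mean of 0.5 FPKM needed for this ranking only through HC. Meg3 and Snhg11 had an r of 0.972 with each other, and Rian had 0.921 with each. Malat1 stood apart from them, with an r of 0.1 with Snhg11 and 0.079 with Meg3, and Neat1 had 0.289 and 0.242. All these values share the libraries and their depth.

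Ratios between the RNAs of neurons overlapped those in amygdala in every blood group. Snhg11 was at 0.395 to 0.563 of the level of Snap25 in the 16 amygdala libraries, with a median of 0.478. In the 4 HC blood libraries it was at 0.368 to 0.538, with a median of 0.388. The range was 0.419 to 1.52 in FC blood (median 0.456) and 0.347 to 2.36 in Immo+FC blood (median 0.445), where both are low. The ratio of Meg3 to Snhg11 was 1.14 to 1.52 in amygdala libraries with a value and 1.29 to 2.0 in HC blood, and that of Snhg11 to Rian was 2.94 to 3.48 in amygdala and 2.18 to 3.92 in HC blood. Meg3 to Snhg11 was 0.732 to 2.44 in FC blood and 0.288 to 1.85 in Immo+FC blood, where both RNAs are low. Snhg11 to Rian was 2.13 to 4.17 in FC blood and 2.19 to 5.01 in the Immo+FC blood libraries with Rian above 0. By contrast the ratio of Neat1 to Malat1, below 1 in every amygdala library, was 2.12 to 3.56 in the blood libraries. The tissues were normalized separately, but a ratio within a library does not depend on its scale.

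Among related genes in blood, 0 of 76 tested passed an adjusted p of 0.05 by limma in each comparison. At an unadjusted p under 0.05, 4 were higher and 9 lower in FC than in HC, where 10.2% of all genes were called in either direction, 0 were higher and 5 lower in Immo+FC than in FC, where 9.54% were, and 17 were lower and 0 higher in Immo+FC than in HC, where 8.12% of all genes were lower. The 17 were 6 of 20 nuclear speckle proteins, 4 of 11 hosts of small nucleolar RNAs, 4 of 20 imprinted genes, 2 of 18 paraspeckle proteins and 1 of 9 other long noncoding RNAs. Gas5, a host gene, was at a mean of 23.8 FPKM in HC and 16.1 FPKM in Immo+FC, groups that did not overlap, with a log2 difference of -0.56 (SE 0.12) and an adjusted p of 0.0653 by limma. Snhg1, at a mean of 126 FPKM in HC and 94.5 FPKM in Immo+FC, differed by -0.39 (SE 0.19). Ndn, the imprinted gene of neurons, was at a mean of 1.80 FPKM in HC, 0.245 FPKM in FC and 0.422 FPKM in Immo+FC. It reached the level tested only through HC, so no test of it is given, and the counts of genes lower than in HC include it. Dlk1, Rtl1 and Dio3 were below the level tested in blood. Of the paraspeckle proteins, Sfpq differed by -0.03 (SE 0.11) in FC vs. HC and Pspc1 by 0.42 (SE 0.15), and of the speckle proteins Son differed by 0.06 (SE 0.10), with adjusted p-values of limma of 0.942, 0.326 and 0.885.

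RNA of neutrophil marker genes also varied among the blood libraries, within HC too. The neutrophil marker score was -1.42 to -1.22 in 3 HC blood libraries and 0.85 in HC replicate 3, -0.56 to 0.40 in FC and -0.06 to 1.73 in Immo+FC. The summed level of 11 neutrophil markers was 4490 to 29500 FPKM in HC, 8380 to 20600 FPKM in FC and 12200 to 44400 FPKM in Immo+FC, with a higher median than in HC for 10 of them in FC and 11 in Immo+FC and none at 0 in a library. With the score as a covariate, the log2 difference of Snhg11 was -2.97 for FC vs. HC, with an adjusted p of 0.0196, and -3.08 for Immo+FC vs. HC, with an adjusted p of 0.0474 by limma. For Meg3 in that fit it was -3.29 for FC vs. HC, with an adjusted p of 0.034, and -4.00 for Immo+FC vs. HC, which did not pass, with an adjusted p of 0.0542 by limma. The part of neutrophil RNA in the differences was not tested beyond this fit. Depth was 23148078 to 31366290 sequences in amygdala and 9081977 to 25892322 in blood, with 91.3 to 92.3% and 60.1 to 72.6% mapped to a single place. In blood it was 9081977 to 20101794 in HC, 19442415 to 24075999 in FC and 21059464 to 25892322 in Immo+FC. The shallowest library, HC replicate 4, had the highest Snhg11 level, at 6.06 FPKM. The part of depth in the differences from HC was not tested.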

How the data were processed

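Poly-A selected RNA-seq libraries, 30 in all, from 17 pools of 2 mice were used, 16 of amygdala and 14 of blood depleted of globin RNA, with 13 pools in both tissues. Reads were aligned by the authors with STAR 2.3 (mm10), and they deposited FPKM values from Cufflinks 2.1.1, separately for each tissue, with Cuffdiff 2.1.1 as their test; 272 of the 23303 entries join overlapping genes. The deposited mapping table holds counts of sequences and percent mapped, as made by the authors. FPKM was turned into log2(FPKM + 0.1). Genes averaging 0.5 FPKM or more in a tissue (13508 in amygdala, 11656 in blood) entered limma 3.58.1 (R 4.3.3) with a variance trend, all 3 groups in 1 fit and no covariate. P-values were adjusted by Benjamini and Hochberg over all genes tested. The 5 RNAs and the gene lists were chosen with earlier results of these data known, so amygdala p-values of the 5 are not given. Nothing states that pools came from separate cages, so p-values measure the spread between pools. Named genes are the 5 RNAs, all domain genes, fixed genes of the other lists and the 5 genes with the highest r for each RNA above 0 in every library of a tissue, of which some are not reported here. Positions and transcript lengths are from GENCODE vM21 and sequences from RefSeq, both on GRCm38. Scores of gene lists are means of log2 levels centred over the libraries of a tissue. The fit was tested on simulated data. Alternatives were other pseudocounts, filters, scalings, covariates, weights and libraries left out.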

Additional observations from a re-analysis of the deposited data

Results flagged for a closer look

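Of 29 groups of 4 to 6 libraries examined for a library far from the others by Dixon's criterion, 3 had one, and chance gives about 1 in 20. Malat1 in blood was lowest in HC replicate 3, at 23.1 FPKM against 38.6 to 39.5 FPKM in the other HC libraries, and this library also had the highest erythroid marker score, 2.32. Malat1 in FC blood was highest in replicate 4, at 37.1 FPKM against 27.8 to 29.5 FPKM in the others. Rian in FC blood was highest in replicate 5, at 0.782 FPKM against 0.0745 to 0.266 FPKM in the others, and this library had the highest neuron marker score of its group, 0.54.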

How the results depend on the processing

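Apart from single libraries left out, 180 values in amygdala and 197 in blood stayed on their side of the threshold or within the spread of replicates, 12 and 11 moved further, and 5 in blood newly passed. With the score of long transcripts in the fit Malat1 in amygdala was at -0.19 for FC vs. HC and 0.49 for Immo+FC vs. FC, and without HC replicates 1 and 2 and Immo+FC replicate 1, an alternative chosen after seeing the data, Meg3 in Immo+FC vs. HC was at 0.013; with 1 library left out it ranged from -0.23 (without Immo+FC replicate 3) to -0.02 (without Immo+FC replicate 1). In blood Snhg11 passed the threshold for FC vs. HC with no filter (-2.65, adjusted p = 0.0477 by limma) and with the neutrophil score (-2.97, adjusted p = 0.0196 by limma), and for Immo+FC vs. HC with a pseudocount of 1 (-1.49, adjusted p = 0.0442 by limma) and with the neutrophil score (-3.08, adjusted p = 0.0474 by limma). Meg3 in FC vs. HC passed with the neutrophil score (-3.29, adjusted p = 0.034 by limma) and was at 0.29 with the neuron score, as was Immo+FC vs. HC at 0.32. Malat1 with the neutrophil score was at 0.21 for Immo+FC vs. FC and 0.19 for Immo+FC vs. HC in blood. The cause of these moves was not tested. Of the related genes, where 0 were called, array weights gave 5 in FC vs. HC and 4 in Immo+FC vs. FC in amygdala, leaving out HC replicates 1 and 2 gave 5 and 4, also leaving out Immo+FC replicate 1 gave 5 and 6, and a fit of only the groups compared gave 2 in Immo+FC vs. FC. In blood no filter gave 1 in FC vs. HC and 1 in Immo+FC vs. HC, the neutrophil score gave 2 and 1, and a pseudocount of 1, quantile normalization and array weights gave 1, 1 and 2 in Immo+FC vs. HC. With 1 library left out the related genes called ranged from 0 to 3 in FC vs. HC (3 without HC replicate 1 or 2, 1 without Immo+FC replicate 1) and from 0 to 4 in Immo+FC vs. FC (4 without Immo+FC replicate 1) in amygdala, and from 0 to 3 in Immo+FC vs. HC in blood (3 without HC replicate 3, 1 without Immo+FC replicate 4). No RNA of the 5 passed the threshold in blood with any 1 library left out, and the adjusted p of Snhg11 in FC vs. HC ranged from 0.0532 to 0.361 by limma.

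A fit with the replicate number as a block gave 5 related genes in FC vs. HC and 3 in Immo+FC vs. FC in amygdala and changed no other call. Deviations of libraries of the same number correlated at -0.257 to 0.31 in amygdala and -0.25 to 0.207 in blood, and 4 of 16 and 2 of 14 libraries correlated best with their own number, so the numbers were not taken as pairs.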
